A study of Homo sapiens with 6 samples.

Results

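Translation initiation factors are the proteins that place the initiator tRNA and the ribosome on the start codon of an mRNA. Their mRNAs were taken from a table of read counts per gene by symbol: every symbol that begins with EIF and a factor number from 1 to 6, without EIF4A3 (a subunit of the exon junction complex), the 4 kinases of eIF2 (EIF2AK1 to EIF2AK4), EIF2C symbols, and symbols that end in P and a digit. This gave 51 of the 26364 rows, of which 47 name factor genes and 4 name antisense RNAs (EIF1AX-AS1, EIF1B-AS1, EIF2B5-AS1 and EIF3J-AS1). Enough reads to be tested were present for 40 of the 51.

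The RNA came from HEK293T cells, a transformed line of human embryonic kidney. The p-UPF1 IP group (3 libraries, replicates 3, 6 and 9) is RNA that was immunoprecipitated with an antibody to UPF1 in its phosphorylated form. UPF1 is a helicase that nonsense-mediated decay (NMD), the pathway that degrades mRNAs whose translation ends too early, cannot do without. The pre-IP group (3 libraries, replicates 1, 4 and 7) carries the title pre-IP, but its antibody label is rabbit IgG. The labels thus conflict on whether this control was taken before the IP or is a mock IP, and the title is used for it below. Cells of both groups had received 200 nM okadaic acid, an inhibitor of the phosphatases that act on UPF1, for 3 h. No label ties the replicates to separate cultures, so the p-values reflect the spread among these 6 libraries alone, and that spread may be technical.

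Total counts were 2057647, 1840194 and 905926 in the p-UPF1 IP libraries and 1179369, 600244 and 945005 in the pre-IP libraries. Small structured RNAs (small nucleolar, spliceosomal and similar RNAs) took 24.1% to 43.1% of them in p-UPF1 IP and 63.2% to 75.2% in pre-IP. Initiation factor mRNAs had 15368, 12689 and 8420 counts in p-UPF1 IP and 3175, 1171 and 2392 counts in pre-IP, so the pre-IP values carry the larger counting error. Of a list of 5 genes that HEK293T cells express (VIM, NEFM, NEFL, PAX2 and LIN28B), all 5 had counts, with sums of 910 to 1773 per p-UPF1 IP library and 113 to 279 per pre-IP library. PAX2 had 0 counts in the pre-IP libraries. Markers of blood, liver and fibroblasts summed to 0 to 9 counts in any p-UPF1 IP library and 0 to 6 counts in any pre-IP library, and those of epidermis and muscle to 0.

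Initiation proceeds in steps that the factor numbers follow only in part. eIF1 and eIF1A hold the small ribosomal subunit open while it scans, and eIF2 brings the initiator tRNA as a complex with GTP. eIF5 promotes GTP hydrolysis by eIF2 once a start codon is found, and eIF2B reloads eIF2 with GTP. eIF3 is a scaffold of many subunits on the small subunit, the eIF4 proteins recruit the capped mRNA and unwind its leader, and eIF5B joins the large subunit. Start codon choice is known to depend on the base at the third position before the codon (A or G is favourable) and on the base right after it (G is favourable). The mRNAs of EIF1 and EIF5 are known for feedback on their own translation through an unfavourable start context (EIF1) and through upstream start codons (EIF5).

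The start sites of the 6 factor mRNAs that passed the test below are shown with those of EIF1B, the paralog of EIF1, and of EIF4G2, whose start codon is not ATG. Each line has 10 bases before the start codon, the start codon in capitals and 7 bases after it, 5′ to 3′, from 1 principal transcript per gene of GENCODE release 29 on GRCh38, with the coordinates of the codon.
EIF5 (chr14:103335861-103335863, plus strand): ataagccaaaATGtctgtca
EIF1 (chr17:41689039-41689041, plus strand): atcgtatcgtATGtccgcta
EIF1B (chr3:40309942-40309944, plus strand): ctagtatcgcATGtccacta
EIF3K (chr19:38619269-38619271, plus strand): gacagaagtcATGgcgatgt
EIF2S3 (chrX:24054969-24054971, plus strand): ttttggcaacATGgcgggcg
EIF4B (chr12:53006484-53006486, plus strand): ctctcccaacATGgcggcct
EIF3M (chr11:32583888-32583890, plus strand): ggcctgcaccATGagcgtcc
EIF4G2 (chr11:10807293-10807295, minus strand): agccgccaaaGTGgagagtg
EIF1 and EIF1B have C at the third base before the codon and T right after it. The other 6 have A or G at the third base before it, and EIF3K, EIF2S3, EIF4B and EIF4G2 also have G right after the codon.

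The comparison asks which initiation factor mRNAs gave more or fewer fragments with p-UPF1 than in the control. The mRNAs of EIF5 and EIF1 were higher in p-UPF1 IP, by 4.42-fold and 2.02-fold. The mRNAs of EIF3K, EIF2S3, EIF4B and EIF3M were lower. The other 34 tested factors did not pass the test, and the 40 had a median log2 fold change of -0.00055, beside 0.10 for all 8070 tested genes. The test was edgeR's quasi-likelihood F-test on the whole table of counts, with TMM scaling (which aligns the bulk of genes between libraries) and Benjamini-Hochberg adjustment over the 8070 genes, and a gene was called at an adjusted p under 0.05.

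By this rule 6 of 40 factors were called (15%), beside a background of 19.7% of all tested genes (1591 of 8070) and 17% of the tested protein-coding genes. The 2 called higher make 5% of the factors, beside 8.81% of all genes, and the 4 called lower make 10%, beside 10.9%. The share called was therefore near or below the background in each direction. The p-UPF1 IP and pre-IP libraries did not overlap for 11 of the 40 factors (27.5%), beside 39.7% of all tested genes. Log2 fold changes of the factors ran from -1.38 to 2.14, with 19 above 0 and 21 below. Without TMM, on library totals alone, the median of all genes moved to 1.63. None of the factors was then called lower, beside 156 of the 8070 genes. The values are relative within a library, so less of an mRNA and more of the other RNAs cannot be told apart, nor can fewer cells with an mRNA and less of it per cell.

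**Figure D1:**
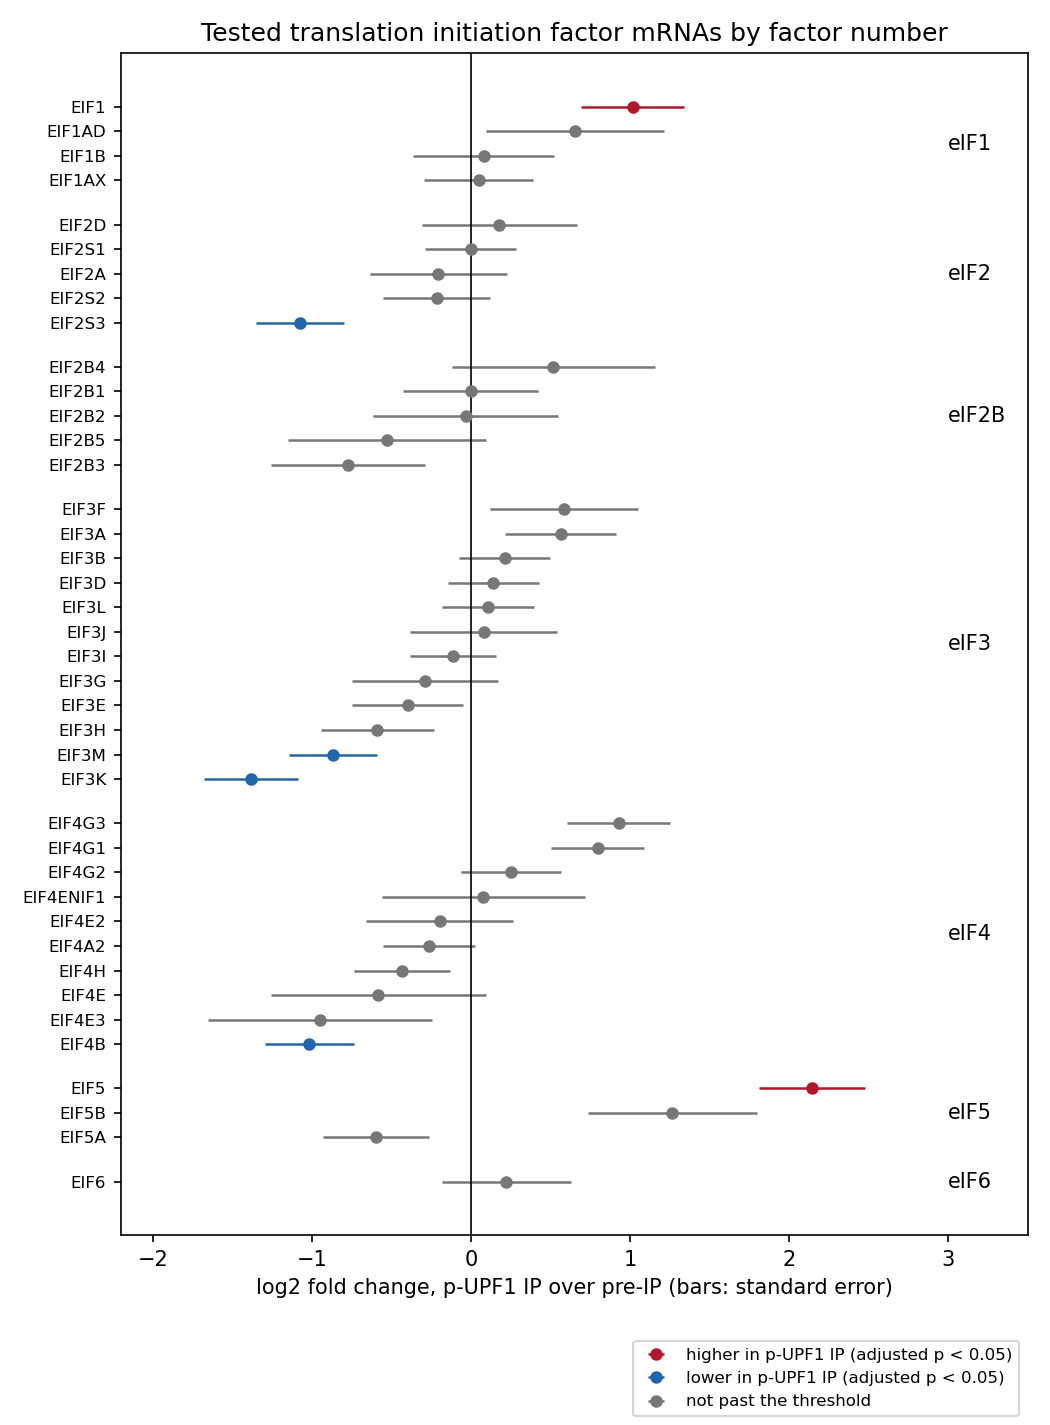
Log2 fold change of p-UPF1 IP over pre-IP (horizontal axis, bars are standard errors) for the 40 tested initiation factor mRNAs, grouped by factor number, after TMM scaling. EIF5 at 2.14 and EIF1 at 1.02 lie to the right past the threshold, EIF3K, EIF2S3, EIF4B and EIF3M lie to the left between -1.38 and -0.87 (above 0 on library totals alone), and the other 34 are drawn in grey.

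Of the eIF1 group, 4 of 5 mRNAs were tested and 1 rose. EIF1, which keeps the ribosome from settling on a wrong start codon, had 1282, 1453 and 1063 counts in p-UPF1 IP, against 168, 86 and 133 counts in pre-IP. Scaled by TMM and by depth (CPM) these were 392, 529 and 594 in p-UPF1 IP, against 215, 308 and 230 in pre-IP. Every p-UPF1 IP library lay above every pre-IP library, with 392 in p-UPF1 IP and 308 in pre-IP at the nearest. EIF1 averaged 505 ± 104 CPM in p-UPF1 IP and 251 ± 50.0 CPM in pre-IP (SD, n = 3 each), and the log2 fold change was 1.02 (SE 0.32, adjusted p = 0.0358). The call was lost without pre-IP replicate 1 (0.92, adjusted p = 0.122), pre-IP replicate 7 (0.99, adjusted p = 0.0945) or p-UPF1 IP replicate 3 (1.17, adjusted p = 0.0559). Without p-UPF1 IP replicate 6 it was 0.98 (adjusted p = 0.0923), and without p-UPF1 IP replicate 9 it was 0.90 (adjusted p = 0.0877).

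EIF1B, a paralog that encodes a protein close to eIF1, had 72, 86 and 46 counts in p-UPF1 IP, against 18, 6 and 17 counts in pre-IP. At 26.3 ± 4.69 CPM in p-UPF1 IP and 24.6 ± 4.18 CPM in pre-IP (SD, n = 3 each), its groups overlapped and the log2 fold change was 0.081 (SE 0.44, adjusted p = 0.917). EIF1 thus took 94.7%, 94.4% and 95.9% of the CPM of the pair in p-UPF1 IP, against 90.3%, 93.5% and 88.7% in pre-IP. The groups of this share did not overlap (exact permutation test over libraries, two-sided, p = 0.1, the smallest that 3 libraries against 3 can give, and 0.167 adjusted over the 5 paralog shares computed). For EIF1AX, the X-linked gene of eIF1A, the groups overlapped (log2 fold change 0.050, adjusted p = 0.934). EIF1AD, a protein with an eIF1A-like domain, had 0.66 (adjusted p = 0.443) with groups that did not overlap, on 4 to 11 counts per pre-IP library.

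Of the 5 eIF2 mRNAs, all tested, 1 fell. EIF2S3, the gamma subunit that binds GTP and the initiator tRNA, had 446, 383 and 217 counts in p-UPF1 IP, against 198, 90 and 154 counts in pre-IP. These were 136, 139 and 121 CPM in p-UPF1 IP, against 253, 322 and 266 CPM in pre-IP. The highest p-UPF1 IP library lay well below the lowest pre-IP library. The means were 132 ± 9.64 CPM in p-UPF1 IP and 281 ± 36.7 CPM in pre-IP (SD, n = 3 each), and the log2 fold change was -1.08 (SE 0.28, adjusted p = 0.0116). It was not called without p-UPF1 IP replicate 3 (-1.10, adjusted p = 0.0543) or replicate 9 (-1.0, adjusted p = 0.0583), and it was above 0 on library totals (0.49, beside a median of 1.63 for all genes). The other subunits did not pass the test: EIF2S1, the alpha subunit whose phosphorylation represses initiation, had a log2 fold change of -9.9e-05, and EIF2S2, the beta subunit, had -0.22. The groups of both overlapped. EIF2A and EIF2D, single-chain proteins that can deliver initiator tRNA outside eIF2, had -0.20 and 0.18.

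The 5 subunits of eIF2B, the exchange factor of eIF2, gave no call with edgeR, and 0 had an unadjusted p under 0.05. The subunit with the highest level, EIF2B1, had 121, 116 and 50 counts in p-UPF1 IP, against 32, 13 and 13 counts in pre-IP. Its means were 35.7 ± 7.21 CPM in p-UPF1 IP and 36.7 ± 12.6 CPM in pre-IP (SD, n = 3 each), its groups overlapped and its log2 fold change was -0.0010 (SE 0.42, adjusted p = 0.999). EIF2B3 lay farthest from 0, with 63, 42 and 32 counts in p-UPF1 IP against 16, 13 and 16 counts in pre-IP. It averaged 17.5 ± 2.01 CPM in p-UPF1 IP and 31.6 ± 13.5 CPM in pre-IP (SD, n = 3 each), and the log2 fold change was -0.77 (SE 0.49, adjusted p = 0.282) with groups that did not overlap. EIF2B4 and EIF2B2 had log2 fold changes of 0.52 and -0.033. EIF2B5, the catalytic subunit, had 60, 71 and 33 counts in p-UPF1 IP, against 6, 3 and 40 counts in pre-IP. Its log2 fold change was -0.53 (adjusted p = 0.593), and 1.29 without pre-IP replicate 7.

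Of the 14 eIF3 genes, 12 were tested and 2 fell, EIF3K and EIF3M. EIF3K had 160, 144 and 95 counts in p-UPF1 IP, against 86, 47 and 75 counts in pre-IP. These were 48.9, 52.4 and 53.1 CPM in p-UPF1 IP, against 110, 168 and 130 CPM in pre-IP. The p-UPF1 IP libraries lay close together, and the groups were far apart. EIF3K averaged 51.5 ± 2.28 CPM in p-UPF1 IP and 136 ± 29.7 CPM in pre-IP (SD, n = 3 each), and the log2 fold change was -1.38 (SE 0.30, adjusted p = 0.00367). This was the lowest log2 fold change of the 40 factors, and the call was kept whichever library was left out. It was lost when the trend of fold change with transcript length over all genes was removed (-0.73, adjusted p = 0.108) and was 0.20 on library totals.

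EIF3M had 348, 290 and 200 counts in p-UPF1 IP, against 184, 48 and 104 counts in pre-IP. In CPM these were 106, 106 and 112 in p-UPF1 IP, against 235, 172 and 180 in pre-IP. The groups did not overlap. EIF3M averaged 108 ± 3.44 CPM in p-UPF1 IP and 196 ± 34.6 CPM in pre-IP (SD, n = 3 each), and the log2 fold change was -0.87 (SE 0.28, adjusted p = 0.0364). This call was lost without pre-IP replicate 1 (-0.70, adjusted p = 0.123) or without p-UPF1 IP replicate 3 (-0.86, adjusted p = 0.133), 6 (-0.86, adjusted p = 0.112) or 9 (-0.88, adjusted p = 0.103). It was also lost with the length trend removed (-0.60, adjusted p = 0.145), and the value was 0.67 on library totals. The length used for that trend was 1207 nt, while the principal transcript of EIF3M has 3863 nt after the stop codon. Removal of the trend is thus uncertain for EIF3M.

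The other 10 tested eIF3 mRNAs did not pass the test. EIF3D, which can bind the cap itself, had the highest level of them, with 968, 787 and 537 counts in p-UPF1 IP against 211, 81 and 140 counts in pre-IP. At 294 ± 7.04 CPM in p-UPF1 IP and 267 ± 24.2 CPM in pre-IP (SD, n = 3 each), its groups overlapped (log2 fold change 0.14, SE 0.29, adjusted p = 0.772). EIF3A and EIF3B, the large core subunits, had log2 fold changes of 0.57 and 0.21. The remaining values were 0.59 for EIF3F, 0.11 for EIF3L, 0.081 for EIF3J, -0.11 for EIF3I, -0.29 for EIF3G, -0.40 for EIF3E and -0.59 for EIF3H. Each of these 9 had overlapping groups. The subunits of this 1 complex thus spread over log2 fold changes of -1.38 to 0.59 around a median of -0.015.

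Of the eIF4 mRNAs, 10 of 12 were tested and 1 fell. EIF4B, an RNA-binding protein that stimulates the helicase eIF4A, had 424, 309 and 182 counts in p-UPF1 IP, against 171, 58 and 155 counts in pre-IP. These were 130, 112 and 102 CPM in p-UPF1 IP, against 219, 208 and 268 CPM in pre-IP. The groups were clearly apart. The means were 115 ± 14 CPM in p-UPF1 IP and 231 ± 32.0 CPM in pre-IP (SD, n = 3 each), and the log2 fold change was -1.02 (SE 0.28, adjusted p = 0.0170). The call was lost without pre-IP replicate 7 (-0.87, adjusted p = 0.0585) or without p-UPF1 IP replicate 3 (-1.12, adjusted p = 0.0515), 6 (-1.01, adjusted p = 0.0659) or 9 (-0.93, adjusted p = 0.082), and the value was 0.52 on library totals. EIF4H, a related helicase partner, had -0.43.

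The scaffold proteins of the eIF4G family bind eIF4A and eIF3, and EIF4G1 and EIF4G3 also bind the cap-binding protein. EIF4G1, the principal scaffold, had 1317, 917 and 612 counts in p-UPF1 IP, against 152, 61 and 121 counts in pre-IP. It averaged 359 ± 37.3 CPM in p-UPF1 IP and 207 ± 12.1 CPM in pre-IP (SD, n = 3 each), with groups that did not overlap, and missed the threshold (log2 fold change 0.80, SE 0.29, adjusted p = 0.0633). EIF4G3 had 456, 241 and 197 counts in p-UPF1 IP, against 56, 11 and 35 counts in pre-IP. It too had groups that did not overlap, with 112 ± 25.8 CPM in p-UPF1 IP and 57.2 ± 16.4 CPM in pre-IP (SD, n = 3 each; log2 fold change 0.93, SE 0.33, adjusted p = 0.0531). EIF4G3 was called in 8 of the 18 alternative settings and EIF4G1 in 3. EIF4G2, a scaffold without the eIF4E-binding part, had 1625, 1368 and 799 counts in p-UPF1 IP, against 271, 110 and 271 counts in pre-IP. Its groups overlapped, with 480 ± 29 CPM in p-UPF1 IP and 403 ± 61.3 CPM in pre-IP (SD, n = 3 each; log2 fold change 0.25, SE 0.31, adjusted p = 0.611).

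Within the eIF4G family, EIF4G2 took 50.6% ± 3.26 of the CPM in p-UPF1 IP and 60.2% ± 3.45 in pre-IP, and EIF4G1 took 37.7% ± 1.27 in p-UPF1 IP and 31.2% ± 2.63 in pre-IP (SD, n = 3 each). The groups did not overlap for either share (exact permutation test, two-sided, p = 0.1 each, 0.167 adjusted). EIF4G3 took 11.7% ± 1.99 in p-UPF1 IP and 8.64% ± 2.85 in pre-IP, with overlapping groups (exact p = 0.2, also 0.2 adjusted). EIF4G2 holds the small nucleolar RNA SNORD97 in an exon, and EIF4G1 holds SNORD66 in an intron. Both small RNAs were called lower in p-UPF1 IP, with log2 fold changes of -2.97 for SNORD97 (adjusted p = 0.000201) and -1.88 for SNORD66 (adjusted p = 0.00838). On library totals these were -1.50 (adjusted p = 0.00258) and -0.33 (adjusted p = 0.460), and whether their reads reach the host's row was not tested.

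The cap-binding protein EIF4E had 56, 33 and 20 counts in p-UPF1 IP, against 20, 0 and 17 counts in pre-IP, too few for a narrow estimate (log2 fold change -0.58, SE 0.67, adjusted p = 0.586). Its relatives EIF4E2 and EIF4E3 had -0.20 and -0.95, and EIF4ENIF1, which binds eIF4E and carries it to the nucleus, had 0.080. The helicase paralog EIF4A2 had 506, 341 and 217 counts in p-UPF1 IP, against 125, 55 and 74 counts in pre-IP. Its groups overlapped, with 133 ± 18.4 CPM in p-UPF1 IP and 162 ± 34.6 CPM in pre-IP (SD, n = 3 each; log2 fold change -0.26, SE 0.29, adjusted p = 0.565). The paralog EIF4A1 was listed at 0 counts in all 6 libraries, although it is in general use in dividing cells, so the pair could not be compared.

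Of the eIF5 mRNAs, 3 of 5 were tested and 1 rose. EIF5, the GTPase-activating protein of eIF2, had 1784, 1697 and 1024 counts in p-UPF1 IP, against 131, 26 and 73 counts in pre-IP. These were 545, 618 and 573 CPM in p-UPF1 IP, against 168, 93.1 and 126 CPM in pre-IP. The lowest p-UPF1 IP library was far above the highest pre-IP library. The means were 578 ± 36.8 CPM in p-UPF1 IP and 129 ± 37.3 CPM in pre-IP (SD, n = 3 each), and the log2 fold change was 2.14 (SE 0.33, adjusted p = 0.000338). EIF5 passed the threshold in all 18 alternative settings, with adjusted p-values up to 0.00257 (without pre-IP replicate 7), and had 1.61 with the length trend removed (adjusted p = 0.00109). Among all 8070 tested genes, 411 had a larger log2 fold change (5.09%) and 132 a smaller p.

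EIF5 holds a small nucleolar RNA, SNORA28, in an intron. SNORA28 had 3575, 6848 and 1341 counts in p-UPF1 IP, against 1409, 1258 and 1159 counts in pre-IP, and it was not called (log2 fold change -0.94, adjusted p = 0.219). On library totals alone SNORA28 was at 0.65 (adjusted p = 0.167) and EIF5 at 3.66, and whether reads of SNORA28 reach the row of EIF5 was not tested. The annotated leader of EIF5 is 676 nt long and holds 6 upstream ATG triplets, and that of EIF1 is 146 nt long and holds 0. Neither gene has a transcript that GENCODE marks as an NMD target.

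EIF5B, the GTPase that joins the ribosomal subunits, had 99, 108 and 89 counts in p-UPF1 IP, against 23, 3 and 3 counts in pre-IP. Its groups did not overlap, but the nearest libraries were 30.2 CPM in p-UPF1 IP and 29.4 CPM in pre-IP, and it was not called (log2 fold change 1.27, SE 0.53, adjusted p = 0.102). Without pre-IP replicate 1, the library at 29.4 CPM, EIF5B was called (2.46, adjusted p = 0.0136), as it was with no filter on low counts (1.43, adjusted p = 0.0347), and without pre-IP replicate 7 the value was 0.82 (adjusted p = 0.248). EIF5A, which carries the hypusine residue and acts in elongation, had 228, 160 and 195 counts in p-UPF1 IP, against 63, 36 and 87 counts in pre-IP. With 79.0 ± 26.7 CPM in p-UPF1 IP and 120 ± 35.7 CPM in pre-IP (SD, n = 3 each), its groups overlapped (log2 fold change -0.60, SE 0.33, adjusted p = 0.224). EIF5A2, its paralog, was under the filter on low counts, with 17, 9 and 9 counts in p-UPF1 IP against 3, 0 and 4 counts in pre-IP. EIF5A took 94.4% ± 1.28 of the CPM of that pair in p-UPF1 IP and 97.0% ± 2.58 in pre-IP (SD, n = 3 each), with overlapping groups (exact permutation test, p = 0.2). EIF6, which keeps the ribosomal subunits apart, had 126, 115 and 113 counts in p-UPF1 IP against 31, 5 and 34 counts in pre-IP. Its groups overlapped, with 47.8 ± 13.4 CPM in p-UPF1 IP and 38.8 ± 20.4 CPM in pre-IP (SD, n = 3 each; log2 fold change 0.22, SE 0.40, adjusted p = 0.741).

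**Figure D2:**
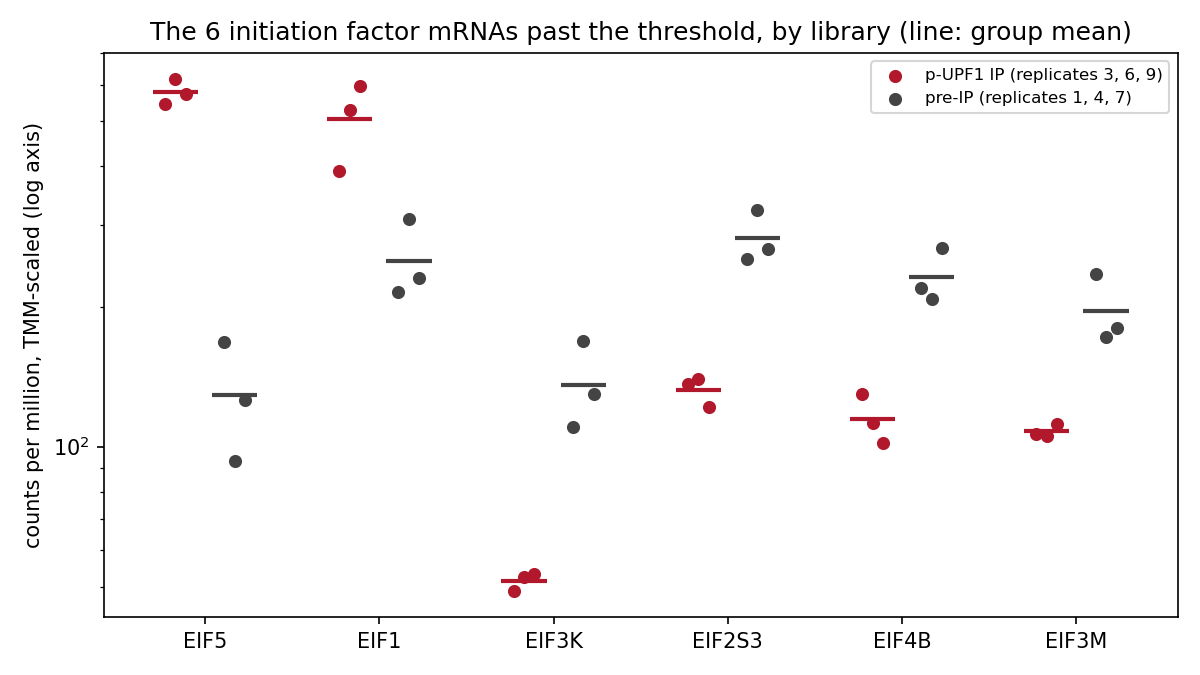
TMM-scaled CPM on a log axis for the 6 initiation factor mRNAs past the threshold, with p-UPF1 IP (replicates 3, 6 and 9) left of pre-IP (replicates 1, 4 and 7); points are libraries and lines are group means. EIF5 is at 545 to 618 in p-UPF1 IP against 93.1 to 168 in pre-IP, and EIF1 is also higher in p-UPF1 IP. The other 4 are lower in p-UPF1 IP on this scale. On library totals alone their log2 fold changes were 0.20 to 0.67, with no call, beside a median of 1.63 for all genes.

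Of the 11 rows that were not tested, 7 were listed at 0 in every library: EIF1AY, EIF3C, EIF3CL, EIF4A1, EIF4E1B, EIF1AX-AS1 and EIF2B5-AS1. EIF3C and EIF3CL are near-identical copies of a core eIF3 subunit gene, and how reads that match several places were counted is not given in the sources used here. The other 4 had few counts: over the 3 libraries of each group, EIF3J-AS1 had 45 in p-UPF1 IP and 4 in pre-IP, EIF5A2 had 35 in p-UPF1 IP and 7 in pre-IP, EIF5AL1 had 10 in p-UPF1 IP and 6 in pre-IP, and EIF1B-AS1 had 1 in p-UPF1 IP and 2 in pre-IP. The strand setting of the counting is not given in the sources used here either, so reads of EIF3J and EIF3J-AS1, or of EIF1B and EIF1B-AS1, cannot be told apart. Values of EIF5A and EIF5AL1 are uncertain in the same way, since EIF5AL1 is a close copy of EIF5A.

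Per kilobase of the median annotated transcript length, levels differed widely among the factors. This length need not be that of the mRNA in these cells, so the levels also depend on the annotation. It was 1207 nt for EIF3M, whose principal transcript has 3863 nt after the stop codon. For EIF3E it was 1324 nt, beside a coding length of 1335 nt. EIF1 was at 634 CPM per kb in p-UPF1 IP and 315 in pre-IP, on a median length of 797 nt. The transcript used for its start site has 1842 nt after the stop codon, so these 2 levels may be too high. EIF5 was at 132 CPM per kb in p-UPF1 IP and 29.4 in pre-IP. Among the tested eIF3 subunits, which form 1 complex, EIF3J was lowest in both groups, at 16.2 CPM per kb in p-UPF1 IP and 14.7 in pre-IP. EIF3D was highest in p-UPF1 IP, at 159 CPM per kb, against 144 in pre-IP. EIF3K was at 66.0 CPM per kb in p-UPF1 IP and was the highest in pre-IP, at 174, and EIF3M was at 89.4 in p-UPF1 IP and 162 in pre-IP.

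As a whole, initiation factor mRNAs took 0.747%, 0.690% and 0.929% of all counts in p-UPF1 IP, against 0.269%, 0.195% and 0.253% in pre-IP. The groups did not overlap, and the ratio of the means (0.789% ± 0.125 in p-UPF1 IP and 0.239% ± 0.0390 in pre-IP) was 3.30 (exact permutation test, two-sided, p = 0.1, the smallest possible). On library totals the median gene of all 8070 tested was itself 3.10-fold higher in p-UPF1 IP, so this ratio is near that of genes at large. For factors without a structured RNA gene inside, the ratio of the mean shares of all counts was 2.72, below 3.10. Outside the small structured RNAs, whose share of the libraries differs as given above, the factors took 1.2% ± 0.0258 of the counts in p-UPF1 IP and 0.748% ± 0.0325 in pre-IP (SD, n = 3 each; ratio 1.61, exact p = 0.1). The median gene was not computed on these counts, so the ratio of 1.61 does not set the factors apart from genes at large. With small structured RNAs left out of the edgeR fit, the factors had a lower median log2 fold change than all tested genes.

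Among the counts of the factors themselves, those of eIF5 took 15.1% ± 1.04 in p-UPF1 IP and 6.57% ± 0.810 in pre-IP, and those of eIF1 took 13.2% ± 2.34 in p-UPF1 IP and 8.45% ± 1.12 in pre-IP (SD, n = 3 each). EIF5 alone took 11.6%, 13.4% and 12.2% in p-UPF1 IP, against 4.13%, 2.22% and 3.05% in pre-IP. The mean shares of eIF2, eIF2B and eIF3 were smaller in p-UPF1 IP. They were 7.37% ± 0.549 in p-UPF1 IP and 12.2% ± 0.975 in pre-IP for eIF2, and 2.44% ± 0.183 in p-UPF1 IP and 3.17% ± 0.217 in pre-IP for eIF2B. For eIF3 they were 31.3% ± 0.866 in p-UPF1 IP and 37.1% ± 1.45 in pre-IP. The groups of these 5 shares did not overlap (exact permutation test, p = 0.1 each, 0.14 adjusted over 7 shares). The eIF4 share overlapped, with 29.5% ± 2.61 in p-UPF1 IP and 31.5% ± 0.929 in pre-IP (exact p = 0.4, 0.467 adjusted), as did that of eIF6, with 1.02% ± 0.280 in p-UPF1 IP and 0.942% ± 0.498 in pre-IP (exact p = 1). Without the 9 tested factors that hold a structured RNA gene (EIF5 among them), 3 of these 5 shares overlapped. The eIF3 share was then 47.6% ± 1.09 in p-UPF1 IP and 49.5% ± 3.59 in pre-IP (exact p = 0.4), that of eIF2B was 4.45% ± 0.607 in p-UPF1 IP and 4.73% ± 0.287 in pre-IP (exact p = 0.5), and that of eIF5 was 4.83% ± 1.21 in p-UPF1 IP and 5.12% ± 0.761 in pre-IP (exact p = 0.7). The eIF4 share, at 6.24% ± 1.03 in p-UPF1 IP and 10.6% ± 1.74 in pre-IP, no longer overlapped (exact p = 0.1, 0.233 adjusted). Shares of 1 total are bound to each other, so a larger share of eIF5 lowers the rest.

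**Figure D3:**
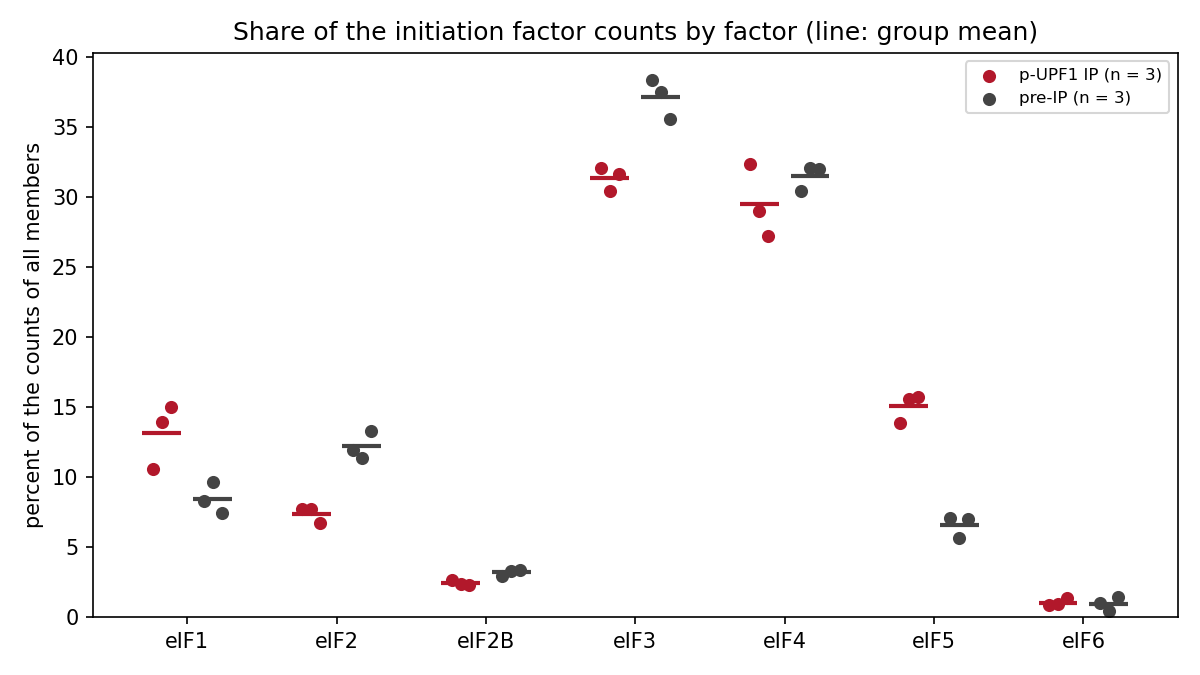
Share of the initiation factor counts (percent, axis from 0) taken by each factor number, with p-UPF1 IP left of pre-IP; points are the 3 libraries of a group and lines are group means. The eIF5 share is 15.1% in p-UPF1 IP against 6.57% in pre-IP, and the eIF3 share is 31.3% in p-UPF1 IP against 37.1% in pre-IP.

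Sequence features that the choice of genes did not use were read from the same annotation. An upstream ATG was present in the leader of 16 of the 40 tested factors (40%), beside 50.7% of the tested protein-coding genes. The median log2 fold change was 0.070 for factors with one and -0.017 for factors without, beside 0.20 and 0.10 over all tested protein-coding genes. Of the called factors, EIF5, EIF2S3 and EIF4B have an upstream ATG, and EIF1, EIF3K and EIF3M do not. At least 1 annotated NMD transcript was present for 22 of the 40 factors (55%), beside 46.3% of the protein-coding genes, with medians of 0.024 with one and -0.00055 without, beside 0.20 and 0.11. EIF3M has 4 such transcripts and EIF4B has 3, and both were lower in p-UPF1 IP (though above 0 on library totals). A start codon with neither A nor G at the third base before it nor G right after it was present in 3 of 40 factors (EIF1, EIF1B and EIF3B, 7.5%), beside 6.04% of 7332 protein-coding genes.

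Over all genes the log2 fold change went with transcript length. Spearman's rho was 0.42 across the 7796 tested genes with a length and 0.18 across the 40 factors, both as descriptions, since genes of these libraries are not independent replicates. The 4 factors with a coding length over 3000 nt (EIF4G1, EIF4G3, EIF3A and EIF5B) had a median log2 fold change of 0.86, against -0.072 for the other 36. Over all tested protein-coding genes the same split gave 0.85 for the 1278 long genes, of which 311 were called higher and 5 lower, against -0.018 for the rest. The long factors thus lay where long genes lay in general, and 0 of these 4 was called by edgeR as set here (EIF4G1, EIF4G3 and EIF5B had an unadjusted p under 0.05). Each of these 3 was called under some other settings of edgeR, and DESeq2 called EIF4G1 and EIF4G3. EIF1 is called higher with a median annotated length of 797 nt. The transcript used for its start site, however, has 1842 nt after the stop codon. EIF5 has a long median annotated length (4384 nt) but a coding length of 1293 nt.

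**Figure D4:**
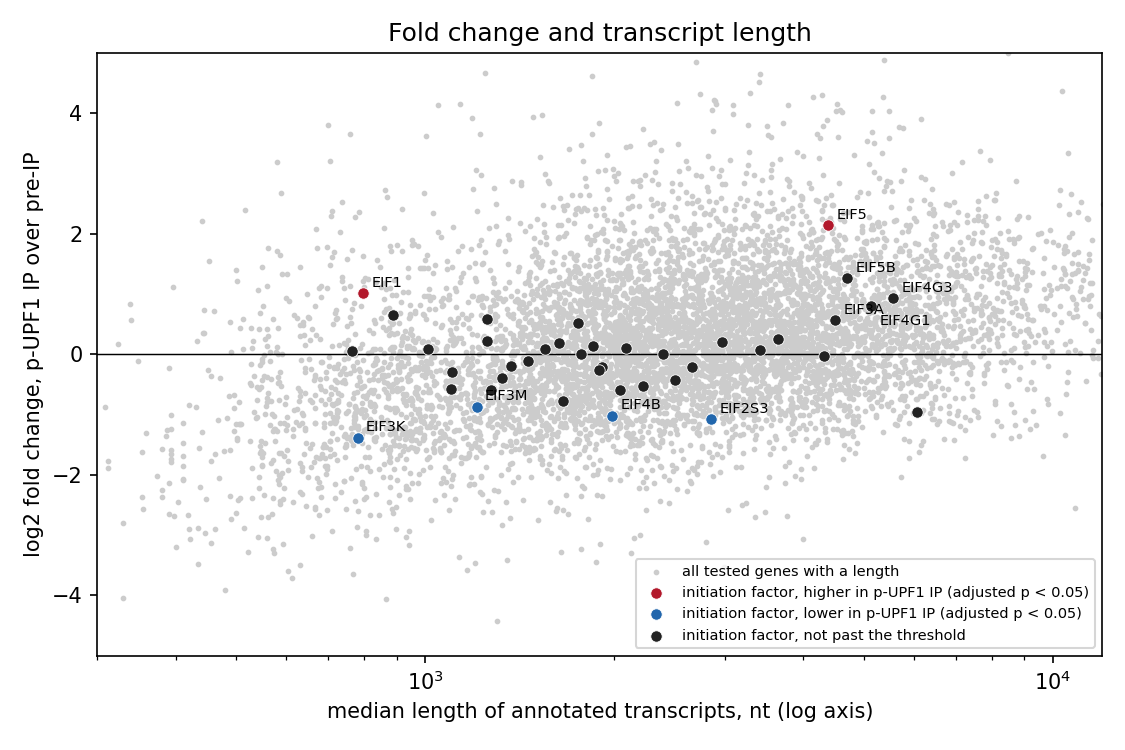
Log2 fold change of p-UPF1 IP over pre-IP against the median length of the annotated transcripts (log axis, nt) for 7410 of the 7796 tested genes with a length; 386 lie outside the axes. Grey points are genes, coloured points are the called initiation factors and black points the other factors; EIF5 and EIF1 lie above 0 at 4384 and 797 nt.

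Of the factors, EIF4B, EIF3E, EIF3F and EIF3H are known to have mRNAs of the TOP type, which begin with a run of pyrimidines and are translated under the control of mTOR. EIF4B fell, as given above. EIF3E had 128, 154 and 140 counts in p-UPF1 IP against 68, 24 and 32 counts in pre-IP, EIF3H had 133, 122 and 98 counts in p-UPF1 IP against 66, 24 and 24 counts in pre-IP, and EIF3F had 144, 157 and 96 counts in p-UPF1 IP against 37, 14 and 5 counts in pre-IP. The groups of these 3 overlapped in CPM, with adjusted p-values of 0.457, 0.259 and 0.402. Over the 4 TOP-type mRNAs the median log2 fold change was -0.49, beside -0.00055 for the 40 factors and 0.10 for all tested genes. Of the 4, 3 were below 0 and EIF3F was above it at 0.59, and EIF4B alone was called.

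A list of 36 genes that control initiation from outside the EIF1 to EIF6 symbols was set beside the factors, of which 35 were tested, 4 were called higher and 3 lower (20%, beside 19.7% of all genes), with a median of 0.023. RPTOR, the subunit of the mTOR complex that picks its substrates, had 187, 206 and 124 counts in p-UPF1 IP against 9, 3 and 3 counts in pre-IP, and rose (log2 fold change 2.87, SE 0.45, adjusted p = 0.000346). CYFIP1 (1.40, adjusted p = 0.0206) and FMR1 (1.11, adjusted p = 0.0345), which form a repressor with the cap-binding protein, rose as well, as did MTOR itself (0.91, adjusted p = 0.0372). MCTS1, a partner of DENR in reinitiation, had 49, 42 and 22 counts in p-UPF1 IP against 33, 15 and 36 counts in pre-IP, and its log2 fold change was -1.87 (SE 0.41, adjusted p = 0.00424). PDCD4, an inhibitor of eIF4A (-1.35, adjusted p = 0.0254), and PPP1R15B, which directs a phosphatase to eIF2 (-1.01, adjusted p = 0.0207), were also lower, though above 0 on library totals (0.18 and 0.53). The groups of PDCD4 overlapped: pre-IP replicate 4 had 32.2 CPM (9 counts), against 29.3 to 45.9 CPM in p-UPF1 IP. The kinases of eIF2 did not pass the test, with log2 fold changes of -0.37, 0.22, 0.016 and 0.039 for EIF2AK1 to EIF2AK4. With the length trend removed, MTOR (0.41, adjusted p = 0.381), CYFIP1 (0.75, adjusted p = 0.248) and FMR1 (1.0, adjusted p = 0.0732) were not called. The median length used there was below the coding length for MTOR (4017 against 7647 nt) and FMR1 (1864 against 1896 nt). Removal of the trend is thus uncertain for MTOR and FMR1. Neither of them was called with voom or with the GC trend removed. MCTS1 was not called on library totals (-0.34, adjusted p = 0.544), nor PPP1R15B with no filter on low counts (-0.84, adjusted p = 0.0944). RPTOR was called in all 18 alternative settings, and without any 1 p-UPF1 IP library RPTOR and MCTS1 alone of this list were called. Without a pre-IP library, calls were lost for FMR1 and PDCD4 (without replicate 1 or 7), MTOR (without 1 or 4), CYFIP1 (without 7) and PPP1R15B (without 1), with adjusted p-values of 0.0573 to 0.113.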

How the data were processed

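The authors deposited raw counts: whole numbers of reads for each gene symbol, in 1 column per library. Per the labels' protocols, ribosomal RNA was removed, adapters of 33 nt were ligated to both ends of dephosphorylated RNA, and inserts over 20 bp were kept after 20 PCR cycles. Fragments can thus be decay products, and no molecular identifiers are described. The submitters' processing notes name featureCounts (Subread 1.5.0p3), STAR 2.5.2b, cutadapt 1.15 and the hg19 build. Not given in the sources used here are the annotation, how strand was set and what was done with multi-mapping reads.

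Counts of all 6 libraries were fitted on the whole table in R 4.3.3 by edgeR 4.0.16 (filterByExpr, minimum count 10; TMM; glmQLFit, glmQLFTest, Benjamini-Hochberg at 0.05, group as the only term). The SE is the size of the log2 fold change divided by the square root of F. CPM were computed on TMM-scaled library sizes. Shares were compared by an exact permutation test over libraries. The scripts were tested on simulated data. Transcript lengths, leaders and start sites come from GENCODE 29 on GRCh38, to which 23801 symbols matched. No coordinate was taken across builds. Lengths are medians over a gene's annotated transcripts. They can differ from the principal transcript, and the CPM per kb and the length trend rest on them.

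The members and lists were chosen with earlier results of these data known. Values per library are given for called factors, for the highest level and the largest fold change of each factor group, for the TOP-type mRNAs and for paralogs, and the others are given by fold change or count. Alternatives were other scalings (RLE, upper quartile, library totals), small structured RNAs or the 10 most counted genes left out, no filter or a minimum of 30, DESeq2 1.42.0, voom of limma 3.58.1, a robust fit, length and GC trends removed, and each library left out.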

Additional observations from a re-analysis of the deposited data

How the results depend on the processing

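EIF5 was the 1 factor called in all 18 alternatives; its log2 fold change ran from 1.61 to 3.66. Of 713 values of single factors under an alternative, 589 kept their direction and side of the threshold. With the sign unchanged, 20 lost a call and 29 gained one. The other 75 changed sign, and calls gained or lost among these are not in the 20 and 29. On library totals alone, 31 factors were called higher and 0 lower, with a median of 1.52 beside 1.63 for all genes. The control list had 26 higher and 0 lower, and the TOP-type mRNAs 3 higher and 0 lower. Most of all tested genes were called higher there too. A call on library totals is thus no sign of a change particular to these lists. With no filter on low counts there were 4 factors higher and 1 lower, with a median of 0.17, 9 control genes higher and 0 TOP-type mRNAs lower; EIF2S3 (-0.90, adjusted p = 0.0645), EIF4B (-0.84, 0.0869) and EIF3M (-0.69, 0.184) were then not called. DESeq2 called 4 factors higher. With the length trend removed, 2 factors and 5 control genes were lower and the median was -0.14. With the GC trend removed, 2 control genes were higher, beside 498 of all 7796 genes, and the median was -0.18. A minimum count of 30 gave a median log2 fold change of tested members of -0.0886, beside 0.067 for all genes. The cause of these shifts was not tested. Leaving out each library in turn gave 1 to 3 factors higher and 1 to 4 lower, with a median of -0.098 to 0.021. Over all tested genes the counts were 273 to 795 higher and 518 to 833 lower. The control list had 1 to 6 higher and 1 to 3 lower, and the TOP-type mRNAs 0 to 0 higher and 0 to 1 lower. With the 4E-BP symbols counted in, chosen after seeing the data, 2 were higher and 5 lower of 42 tested. The share of member counts taken by eIF5 differed by 8.48 percentage points, and -0.29 without the factors that hold a structured RNA, which leaves out EIF5 itself.

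The sign of the log2 fold change turned for these genes, some of them near 0 in the main fit. On library totals it also turned for every factor called lower (EIF3K, EIF2S3, EIF4B and EIF3M) and for PDCD4 and PPP1R15B. None of those was called there. With the 10 most counted genes left out it was 0.014 for EIF2B1 and 0.014 for EIF2S1. DESeq2 gave EIF2B1 0.028, EIF2S1 0.029 and EIF2B2 0.052. RLE scaling gave EIF2B1 0.031, EIF2S1 0.025 and EIF2B2 0.0085, and upper-quartile scaling gave 0.031, 0.031 and 0.0086 in that order. Voom gave EIF2B1 0.068, EIF2S1 0.0089, EIF3J -0.072 and EIF2B5 0.23. A minimum of 30 gave EIF3J -0.0075, EIF1B -0.0096 and EIF1AX -0.035, and no filter gave EIF3I 0.066, EIF2B1 0.17, EIF2S1 0.18 and EIF2B2 0.13. The GC trend removed gave EIF2D -0.0012, EIF2B1 0.090, EIF2B2 0.096, EIF6 -0.43, EIF4ENIF1 -0.028, EIF3D -0.055, EIF3B -0.30 and EIF1AX -0.19. The length trend removed gave EIF4G2 -0.24, EIF3G 0.069, EIF4ENIF1 -0.38, EIF3L -0.098 and EIF3B -0.19. Library totals gave EIF3I 1.45, EIF2B3 0.80, EIF3M 0.67, EIF4B 0.52, EIF2B1 1.52, EIF2S1 1.52, EIF2B2 1.49, EIF5A 1.02, EIF3G 1.22, EIF3K 0.20, EIF4E2 1.31, EIF2S2 1.28, EIF4E3 0.53, EIF2A 1.33, EIF2B5 0.98, EIF4A2 1.30, EIF4E 0.88, EIF4H 1.14, EIF3E 1.19, EIF3H 0.99, EIF2S3 0.49, PPP1R15B 0.53 and PDCD4 0.18. With each library left out in turn, the ranges that crossed 0 were EIF1AX -0.19 to 0.42, EIF1B -0.075 to 0.25, EIF2A -0.45 to 0.15, EIF2B1 -0.24 to 0.19, EIF2B2 -0.29 to 0.73, EIF2B5 -1.07 to 1.29, EIF2D -0.14 to 0.63, EIF2S1 -0.16 to 0.42, EIF3J -0.12 to 0.27, EIF4E3 -1.40 to 0.043, EIF4ENIF1 -0.15 to 0.70 and EIF6 -0.0060 to 0.62, and the difference in eIF6 share ran from -0.18 to 0.32 percentage points.

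No paired analysis was possible because the p-UPF1 IP and pre-IP libraries share no replicate number in the labels. The pre-IP libraries hold the fewest factor counts, and factors with few of them have wide standard errors (EIF4E 0.67, EIF2B4 0.64, EIF5B 0.53 on the log2 scale). Duplication in PCR cannot be told apart from separate molecules.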

Other observations

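The rule on symbols that end in P and a digit also left out EIF4EBP1, EIF4EBP2 and EIF4EBP3, the proteins that hold eIF4E away from the scaffold eIF4G until mTOR phosphorylates them. EIF4EBP2 had 69, 51 and 52 counts in p-UPF1 IP, against 68, 21 and 36 counts in pre-IP. The groups did not overlap after TMM scaling, with 22.9 ± 5.49 CPM in p-UPF1 IP and 74.8 ± 12.4 CPM in pre-IP (SD, n = 3 each), and the log2 fold change was -1.72 (SE 0.36, edgeR adjusted p = 0.00279). On library totals alone it was -0.15 (adjusted p = 0.778). EIF4EBP1 did not pass the test (log2 fold change -0.068, adjusted p = 0.919), and EIF4EBP3 was listed at 0.

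EIF4A1 was listed at 0, but the small nucleolar RNAs that lie inside that gene were counted under their own symbols. Over the 3 libraries of each group, SNORA48 had 35161 counts in p-UPF1 IP and 18314 in pre-IP, SNORA67 had 3602 in p-UPF1 IP and 2745 in pre-IP, and SNORD10 had 1689 in p-UPF1 IP and 1490 in pre-IP. On the TMM scale SNORA67 and SNORD10 were lower in p-UPF1 IP, with log2 fold changes of -2.17 (edgeR adjusted p = 0.00468) and -2.28 (adjusted p = 0.00205), and SNORA48 had -1.69 (adjusted p = 0.0742). The 4 small nucleolar RNAs of the paralog EIF4A2 had log2 fold changes of -2.16 for SNORA81, -1.95 for SNORD2, -1.51 for SNORA4 and -1.08 for SNORA63, and SNORA63 alone among these 4 was not called (adjusted p = 0.187). On library totals alone, the log2 fold changes of these 7 RNAs ran from -0.78 (SNORD10) to 0.61 (SNORA63), with edgeR adjusted p-values of 0.0856 to 0.912. The row of EIF4A2 itself, at -0.26, did not pass the test.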
